A study of Mus musculus with 15 samples.

Results

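RevErbalpha (gene Nr1d1) and RevErbbeta (gene Nr1d2) were mapped in mouse macrophages, and 1544 sites were bound by both. The sites described here are the 292 that the authors classed as intergenic enhancers and that lie more than 30 kb from the start of the gene they were assigned to. Class, distance and gene are the authors' own. The sites are peaks of the binding libraries, so being bound is part of the choice, while the transcription values are not. They were assigned to 238 of the 1220 genes in the table. An intergenic enhancer in this table is a bound site outside annotated genes with high H3K4me1 and low H3K4me3, histone marks that together are characteristic of enhancers.

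RevErbs are nuclear receptors that lack the activation helix of their relatives and repress transcription by bringing the corepressor NCoR and the deacetylase HDAC3 to DNA. They form an arm of the circadian clock, and in macrophages they also restrain genes of inflammation and matrix turnover. Enhancers are themselves transcribed by RNA polymerase into short-lived capped RNAs, so the nascent RNA at a site far from any gene start can be read apart from that of a promoter.

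Binding came from biotin ChIP-seq in the macrophage line RAW, given as C57Bl6, with RevErbalpha or RevErbbeta carrying a biotinylated tag (BLRP) and streptavidin beads for the pull-down. A BirA library (BirA is the biotin ligase) served as background. Its column is headed BirA-input, and whether it is a pull-down or an input library was not tested. The starts of capped nascent RNA were measured by 5'GRO-seq in control RAW cells (BTEV-Ctrl) and in RAW cells that express biotinylated RevErbalpha. Nascent RNA along the whole transcript was measured by GRO-seq in bone marrow derived macrophages of C57Bl6 background grown with M-CSF. The WT cells carried RevErbalpha flox/flox and RevErbbeta flox/flox, and the DKO cells carried the same floxed alleles plus Tie2-Cre, a Cre driven by a promoter of endothelial and blood-forming cells.

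Each group was 1 sample, so no difference below has a replicate check and no p-value is given. The 3 ChIP-seq runs per protein and the 2 gene-level GRO-seq runs per genotype are listed under 1 sample each. Whether they are technical or biological repeats is not given, so they are not counted as replicates. RevErb runs held between 598490 and 5276592 tags, the 5'GRO-seq libraries 18708148 (control) and 7238710 (tagged RevErbalpha), and the gene-level GRO-seq runs between 34852907 and 46649008. The headers of the table also list treated libraries, and the columns do not say whether any run was treated. Neither RevErb gene was assigned to any of the 292 sites, so the loss of the receptors was not checked by them. Of the 12 macrophage markers examined, the 5 with a gene value (among them Csf1r, Cx3cr1 and Tyrobp) had mean WT levels between 8.675 and 12.52 on the log2 scale. None of the 9 lymphocyte and 4 hepatocyte markers was assigned to a common site, so the table holds no value for them.

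The sites lay from 30182 bp (upstream of Pf4, the platelet factor 4 chemokine) to 1257838 bp (upstream of Zeb2, a zinc finger transcription factor) from the assigned start, with a median of 73135 bp. Upstream sites numbered 178 and downstream sites 114. The sites nearest to the limit were those of Pf4 (-30182 bp), Gm3230 (30652 bp) and Cx3cr1 (30691 bp), and the nearest one left out was that of Cxcl16 (-29947 bp). Since the assigned gene is the nearest one in the authors' list, a site this far away need not act on it.

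Most genes had 1 such site (197 of 238), and 36 had 2. Atp6v1b2 had 3 sites, Cited2 had 4, Reep3 had 5 and Spred1 had 8. Of the 292 sites, 104 had another common site of any class within 50 kb. Clusters were counted among the 292 only, and 35 of them fell into 16 clusters of neighbours less than 10 kb apart. No member had another within 500 bp, the window of the 5'GRO-seq values, and 9 had another within 1 kb, so neighbours in a cluster are separate but not independent readings.

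Of all 1220 genes with a common site, 238 (19.5%) had a distal intergenic one. Of the 32 macrophage transcription factors listed, 15 had a common site and 9 a distal intergenic one, at 14 sites in all, among them Atf3, Cebpa, Ets2, Fos, Fosl2, Hif1a, Jun and Klf4. Of the 38 chemokines, cytokines and their receptors listed, 12 had a common site and 5 a distal intergenic one. These 5 were all receptors (Cx3cr1, Cxcr4, Il10ra, Tgfbr1 and Tgfbr2). Genes outside the list also had distal sites, among them the chemokines Pf4 and Cxcl14 and the receptors Lifr, Il20rb and Cmklr1. Signalling inhibitors and GTPase regulators had 12 of 30 genes with a common site and 6 with a distal one, at 15 sites, of which Spred1 alone held 8. Among genes with a common site, a distal one was found at 2 of 9 in lipid handling (Abca1 and Insig1), 1 of 8 in surface and phagocytosis (Cd44), and 1 of 3 among nuclear receptor cofactors (Tbl1xr1, a subunit of the NCoR complex). No gene of the clock list was assigned to these sites, although 7 of its 22 genes had a common site of another class or distance. The same held for pattern recognition genes (9 of 32 with a common site) and for extracellular proteases and their inhibitors (10 of 23).

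Both RevErbs were bound at the distal sites at about the level of all common sites. Binding is given as log2 tags per 10000000 in 157 bp, averaged over the 3 runs of a protein. The median was 5.515 for RevErbalpha and 5.698 for RevErbbeta at the 292 sites, against 5.453 and 5.683 over all 1544. The BirA library had a median of 1.015 at the same sites. Signal above BirA is part of being a peak and is no finding. The shallowest runs held a median of 3 tags per site, so single-run values at weak sites rest on few tags.

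The most strongly bound distal site lay 69.4 kb downstream of the start of Dnttip2 (chromosome 3, 122046632 to 122046788, mm9), which encodes a nucleolar protein. Its RevErbalpha runs read 7.36, 8.67 and 8.37, its RevErbbeta runs 9.94, 9.29 and 9.41, and BirA 2.46. The mean of 8.84 placed it at rank 6 of all 1544 common sites. All RevErbbeta runs lay above all RevErbalpha runs, and all 6 lay far above BirA.

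The next in order was a site 165.7 kb upstream of Zfand5 (a zinc finger protein), with a mean of 8.195. It was followed by a site 40.3 kb downstream of the start of Ube2g2 (a ubiquitin-conjugating enzyme of protein quality control in the endoplasmic reticulum), at 7.97. The fourth lay 66.6 kb downstream of the start of Edn1, the gene of the vasoconstrictor peptide endothelin-1 (chromosome 13, 42463202 to 42463358), at 7.70. There the RevErbalpha runs read 6.21, 8.15 and 8.18 and the RevErbbeta runs 7.87, 7.85 and 7.95, so the proteins overlapped. The fifth lay 30.7 kb downstream of the start of Cx3cr1, the receptor of the chemokine fractalkine (chromosome 9, 119946631 to 119946787), with RevErbalpha runs of 5.29, 7.58 and 8.01 and RevErbbeta runs of 9.08, 7.31 and 8.63. The rest of the 10 strongest belonged to Arf6 (a small GTPase of membrane traffic), Pitx1 (a homeobox factor), Hif1a (the oxygen-regulated transcription factor), Slc44a1 (a choline transporter) and Atp6v1b2 (a subunit of the vacuolar proton pump), with means between 7.585 and 7.315.

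**Figure D1:**
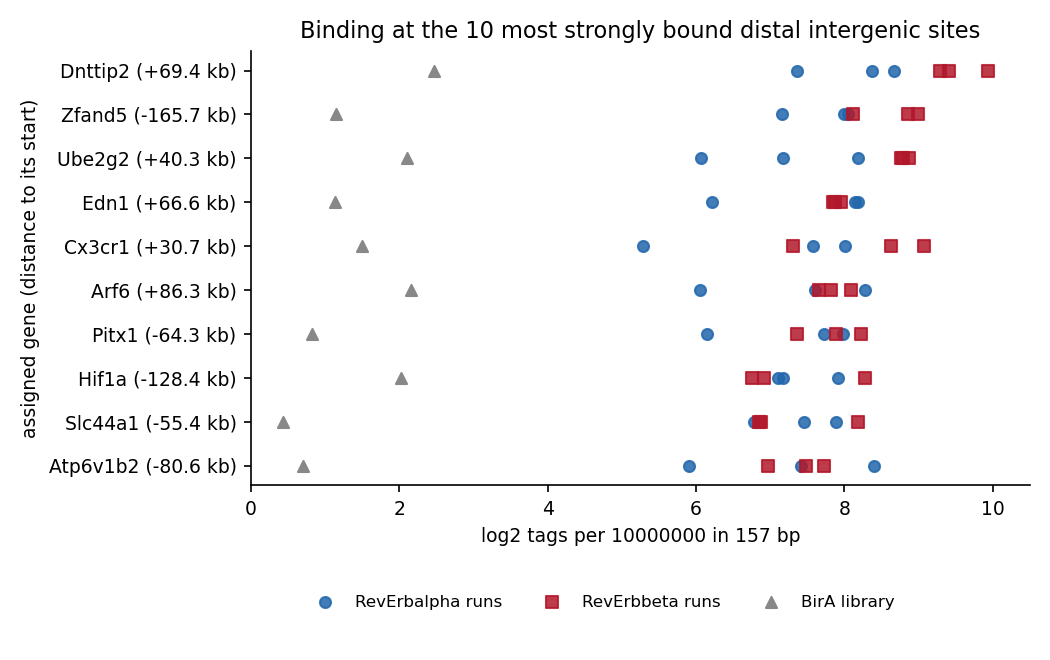
Log2 ChIP-seq tags per 10000000 in 157 bp (horizontal axis) at the 10 most strongly bound distal intergenic sites (vertical axis, assigned gene with the distance to its start). Circles are the 3 RevErbalpha runs, squares the 3 RevErbbeta runs and triangles the BirA library, and every RevErb run lies above 5 while BirA stays at or below 2.46.

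RevErbbeta read higher than RevErbalpha at 199 of the 292 sites (68.2%, against 66.1% of all common sites). That order rests on single runs: the median was 5.797 for RevErbalpha without its first run, against 5.698, and 5.447 for RevErbbeta without its second run, against 5.515. RevErbbeta was then higher at 152 and 147 sites, in that order. The proteins were correlated across sites (Spearman 0.67 over 292 sites, a description of 1 sample per protein). At 16 sites (5.48%) all RevErbbeta runs lay above all RevErbalpha runs and the means differed by at least 1, against 5.05% of all common sites. The reverse held at 2 sites (0.685%, against 0.972% of all). Both shares were close to those of all common sites.

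The 2 sites with more RevErbalpha were assigned to Egln3, an oxygen-sensing prolyl hydroxylase, and 1810010D01Rik. At the Egln3 site, 201399 bp upstream, RevErbalpha read 5.68, 6.51 and 7.30 and RevErbbeta 5.42, 5.12 and 4.94. The widest gap toward RevErbbeta was 251489 bp upstream of Ptger4, a prostaglandin E receptor, where RevErbalpha read 3.97, 4.09 and 3.14 and RevErbbeta 5.95, 6.44 and 5.35. RevErbalpha runs 2 and 3 held only 682651 and 598490 tags in all, with medians of 4 and 3 per distal site. RevErbbeta run 3 held 780281, with a median of 3. Values from these runs, the low RevErbalpha ones near Ptger4 above all, therefore rest on very few tags. The Egln3, 1810010D01Rik and Ptger4 sites were picked after their values were seen. The proteins were tagged in separate lines, and the level of each tagged protein was not tested.

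In RAW cells with tagged RevErbalpha, capped nascent RNA was lower at a minority of distal sites and near the control at most. Among the 5 most strongly bound sites, those of Cx3cr1, Edn1 and Dnttip2 were lower by more than 2 on the log2 scale. Values are log2 tags per 10000000 in 500 bp with 1 added by the authors, and a site is counted as lower or higher when the libraries differ by at least 1. The median over the 292 sites was 6.225 in control and 5.97 in tagged cells, and the median difference per site was -0.205, against -0.23 over all common sites.

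By that size, 42 sites were lower (14.4%, against 20.0% of all common sites) and 18 were higher (6.16%, against 4.92%). The difference was below 0 at 176 sites (60.3%, against 62.6%). Genic enhancer sites beyond 30 kb were lower more often (76 of 302, 25.2%), as were intergenic enhancer sites within 30 kb (53 of 264, 20.1%). The median difference of the nearer intergenic sites was the same as that of the distal ones (-0.205), and that of the genic sites was -0.31. The median control signal was 5.465 at the genic sites, 6.43 at the nearer intergenic ones and 6.225 at the distal ones, and less signal widens log differences. With 10 added in place of 1 the shares were 7.88% for the distal intergenic sites, 13.6% for the genic ones and 12.1% for the nearer ones, and 11.7% for all common sites, so the order of the distal intergenic sites below the others held. Sites are not replicates, and these shares come from 1 pair of libraries.

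Depth limits the single sites. The median site held about 137.5 tags in control and 44 in tagged cells, and 21 of the 42 lower sites held 3 tags or fewer in the tagged library, 8 of them none. Of the 18 higher sites, 2 held 3 tags or fewer in control. Tag numbers are approximate, since they were worked back from rounded log2 values.

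**Figure D2:**
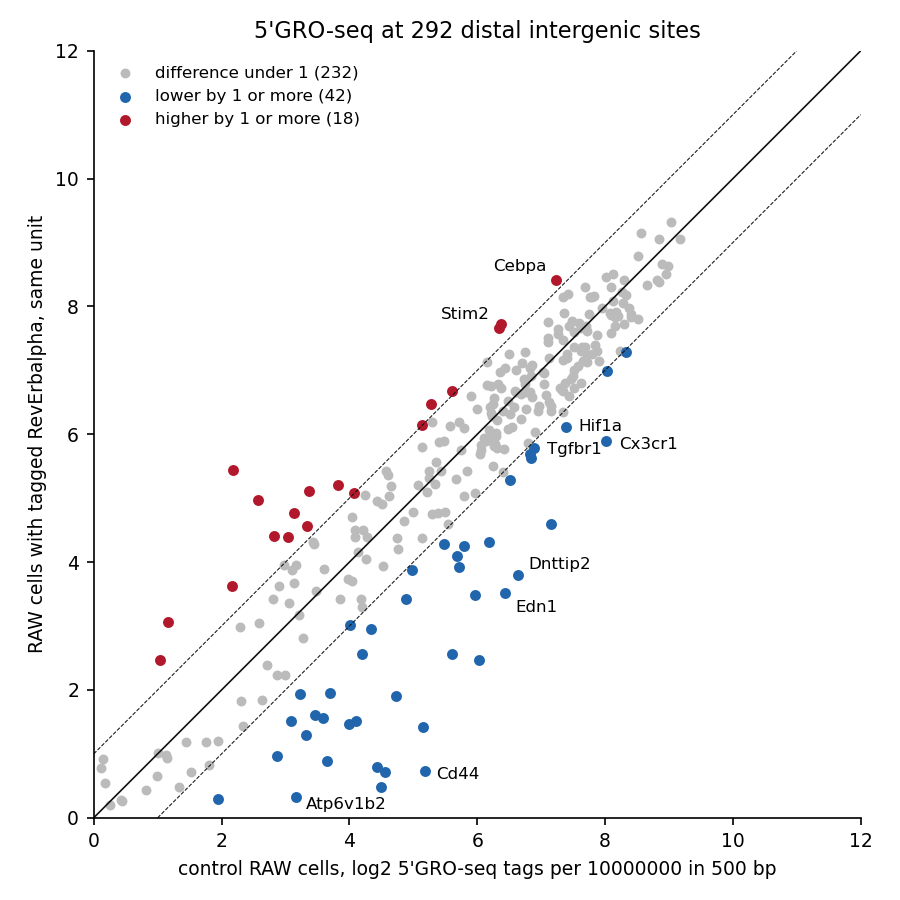
Log2 5'GRO-seq tags per 10000000 in 500 bp in control RAW cells (horizontal axis) and in RAW cells with tagged RevErbalpha (vertical axis), 1 point per site over 292 sites. The solid line marks equal values and the dashed lines a difference of 1, with 42 sites below the lower line, 18 above the upper line and the widest scatter where signal is low.

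The lower sites gathered among the strongly bound ones. Of the 98 most strongly bound sites, 24 were lower and 5 higher, and the median difference was -0.475. Of the 97 in the middle, 8 were lower and 5 higher, with a median of -0.09. Of the 97 most weakly bound, 10 were lower and 8 higher, with a median of 0. The strongly bound sites had less control signal (median 5.77 against 6.27 at the most weakly bound), which widens log differences. With 10 added, the medians were -0.37, -0.05 and 0, and 12, 4 and 7 sites were lower. Over all 1544 common sites divided the same way, 165 of 515, 79 of 515 and 65 of 514 were lower, so the gradient is not particular to the distal sites. Across the 292 sites the difference and the mean binding had a Spearman correlation of -0.27, a description over sites that share the same libraries.

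Distance beyond 30 kb went with little. Between 30 and 50 kb 13 of 95 sites were lower, from 50 to 100 kb 14 of 92, from 100 to 200 kb 8 of 65, and beyond 200 kb 7 of 40. The medians of these groups lay between -0.27 and -0.155. The Spearman correlation between distance and difference was -0.06 over the 292 sites.

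**Figure D3:**
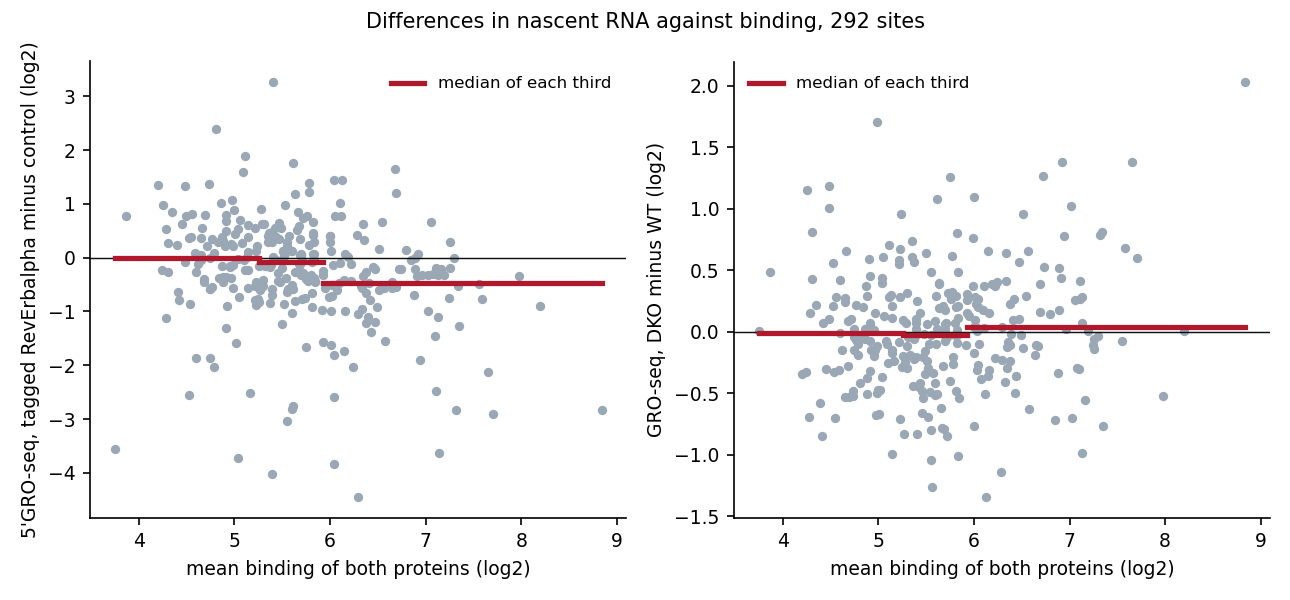
Difference in 5'GRO-seq (left, tagged RevErbalpha minus control) and in GRO-seq (right, DKO minus WT), both log2, against the mean log2 binding of both proteins at 292 sites. Horizontal bars are the medians of the 97 weakest, 97 middle and 98 strongest sites, which step from 0 to -0.475 on the left and stay between -0.03 and 0.04 on the right.

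At the Cx3cr1 site the 5'GRO-seq value was 8.02 in control and 5.90 in tagged cells, a difference of -2.12 on about 483 and 42 tags. With 10 added it was -1.97, so the low end of the scale has little part in it. The site had the largest negative difference among those at or above the median signal.

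The Edn1 site read 6.43 in control and 3.52 in tagged cells (-2.91, or -2.22 with 10 added, on about 159 and 7 tags). The Dnttip2 site read 6.64 and 3.80 (-2.84, or -2.25 with 10 added, on about 184 and 9 tags). Both exceeded the Cx3cr1 site in size, and both rest on fewer tags in the tagged library.

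Near Cd44, the receptor of hyaluronan, a site 46660 bp upstream (chromosome 2, 102788404 to 102788560) read 5.19 in control and 0.74 in tagged cells. It held about 66 tags in control and none in tagged cells, so control was at least 8.51-fold higher when the tagged library is set to the floor of 3 tags. The other Cd44 site, 4 kb away at -42625 bp, read 6.27 and 5.82 (-0.45), so neighbours assigned to the same gene differed widely.

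The 3 sites upstream of Atp6v1b2 lay within 7 kb on chromosome 8 (71529873 to 71536755), and all 3 were lower. At -75958 bp control and tagged cells read 5.97 and 3.49 (-2.48, or -1.82 with 10 added). At -82684 bp they read 6.03 and 2.47, about 120 and 3 tags, a ratio of 15.5 with an exact 95% interval from 5.17 to 76.1 that covers counting error only. That site was the most weakly bound of the 292, with a mean of 3.75, while its neighbours read 7.315 and 7.11. At -80575 bp, the strongest of the 3, about 14 tags in control and none in tagged cells allow only a lower bound of 1.81-fold.

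A further pair lay downstream of the start of Lpin1, a phosphatidate phosphatase of lipid synthesis. At 57174 bp it read 7.16 in control and 4.60 in tagged cells (-2.56, or -2.19 with 10 added, on about 265 and 16 tags). At 63437 bp, about 21 and 0 tags gave a lower bound of 2.71-fold. The pair of sites 0.8 kb apart that were assigned to Eea1, an early endosome tether, read -1.58 and -1.54.

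Of the 35 sites in clusters, 32 were below 0 (91.4%, against 62.6% of all common sites), with a median of -0.58. Lower by at least 1 were 9 of them (25.7%, against 20.0% of all common sites). Spred1 holds 8 of these 35, all below 0, and 24 of the other 27 were below 0. Of the 257 sites with no other distal intergenic site within 10 kb, 144 were below 0 (56.0%). Their median was -0.14, with 33 lower and 18 higher. A common site of another class or distance can still lie nearby, as 5797 bp from the Cx3cr1 site. The same division was not made over all common sites. In 14 of 16 clusters every site was below 0, and in 1, near Ets2, both sites were above (0.22 and 0.41). Neighbours share a locus and are not independent.

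The 8 sites of Spred1, an inhibitor of the Ras and MAP kinase pathway, spread over 47 kb upstream on chromosome 2. All 8 were below 0, between -0.92 and -0.12 with a median of -0.55, and none reached 1. Of the 5 sites of Reep3, an endoplasmic reticulum protein, 3 were below 0 (-0.99, -0.51 and -0.32) and 2 above (0.06 and 0.17). The 4 sites of Cited2, a transcriptional coregulator, read -1.46, 0.42, 0.06 and 0.52, and lay between 375217 and 1224482 bp upstream. Such sets moved alike at Spred1 and Atp6v1b2 and not at Cited2.

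Among the 14 sites of the listed macrophage transcription factors the median difference was -0.07, 2 were lower and 1 was higher. Over all common sites 20.0% were lower and 4.92% higher. The lower ones were near Hif1a, with 7.39 in control and 6.12 in tagged cells (-1.27), and near Fosl2, an AP-1 factor, at -46813 bp with 4.19 and 2.56 (-1.63, on about 32 and 3 tags, a ratio of 4.13 with an exact 95% interval from 1.29 to 21.1). The higher one was near Cebpa, a factor of myeloid differentiation, with 7.23 and 8.42 (1.19). The Fos sites read -0.96 and -0.09, the Jun site -0.41, the Klf4 site -0.59 and the Atf3 site 0.23.

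Of the 5 sites of listed cytokine and chemokine receptors, those of Cx3cr1 and Tgfbr1 were lower, against 20.0% of all common sites. The Tgfbr1 site read 6.89 in control and 5.79 in tagged cells (-1.10). Il10ra (-0.32), Cxcr4 (-0.44) and Tgfbr2 (0.41) stayed under the size limit. Of the 15 sites of signalling inhibitors and GTPase regulators 1 was lower, 48395 bp downstream of the start of Rgs1, a regulator of G protein signalling (-1.38). Apart from the Spred1 sites, the others of that list lay between -0.88 near Elmo1, a partner of the Rac activator DOCK, and 0.78 near Socs6. The lipid genes read 1.01 near Abca1, the cholesterol exporter, and 0.90 near Insig1, a sterol sensor.

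The remaining sites named for a lower value at good signal were near Vps8 (-1.21, an endosomal tethering protein), Tomm20 (-1.13, a mitochondrial import receptor), Lcp2 (-1.04, an adaptor of immune receptors), Olfm1 (-1.03, a secreted olfactomedin) and Irf2bpl (-0.92). Higher at good signal were sites near Mfsd2a, a lysophospholipid transporter (6.38 and 7.73, 1.35), Stim2, a calcium sensor (6.34 and 7.67, 1.33), Metap2, a methionine aminopeptidase (1.07), and Bcl2l11, which encodes the pro-apoptotic protein Bim (0.97). Picked after their values were seen, the largest positive difference of all was near Fam171b (3.26, on about 6 and 30 tags). It began from few control tags.

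In the bone marrow derived macrophages labelled DKO, nascent RNA at the distal sites was mostly at the WT level, and Dnttip2 and Cx3cr1 again stood out, now as higher. GRO-seq values at sites are log2 with 1 column per genotype and a scaling that the headers do not give, so their counting error is unknown. In these bulk cultures fewer cells of a type and less RNA per cell cannot be told apart. The median was 2.888 in WT and 2.805 in DKO, and the median difference was -0.005, against 0.03 over all common sites. By a difference of at least 1, 12 sites were higher (4.11%, against 3.37% of all common sites) and 5 lower (1.71%, against 2.20%). The difference was above 0 at 145 sites (49.7%, against 52.5%). The shares lay near those of all common sites.

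At the Dnttip2 site the value was 2.58 in WT and 4.61 in DKO, a difference of 2.03 and the largest among all 1544 common sites. At the Cx3cr1 site it was 4.195 in WT and 5.58 in DKO, a difference of 1.385 and rank 14. With 10 added these were 1.16 and 1.06, and no other distal site, higher or lower, then reached 1. Of all 1544 common sites, 3 (0.194%) were higher by 1 in that setting. At the median WT level of the distal sites, 2.888, an added 10 exceeds the signal itself. Few sites could therefore reach 1, and the setting says little about the others.

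**Figure D4:**
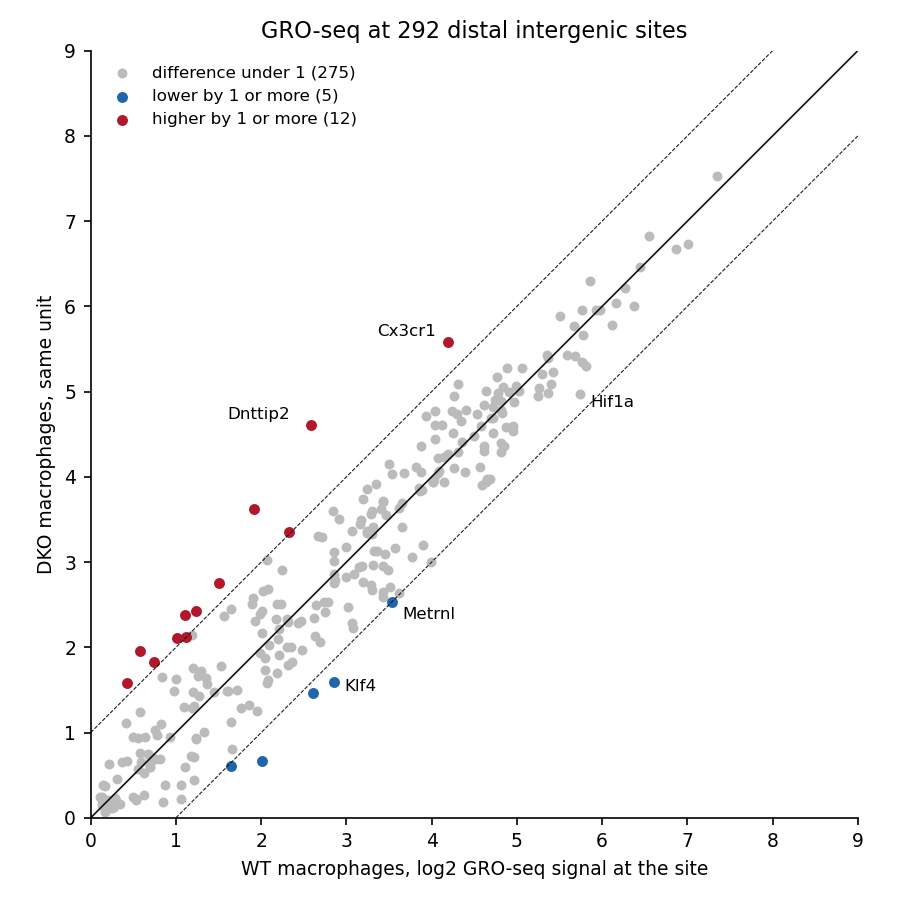
Log2 GRO-seq signal at the site in WT (horizontal axis) and DKO (vertical axis) bone marrow derived macrophages, 1 point per site over 292 sites. The solid line marks equal values and the dashed lines a difference of 1, with 12 sites above, 5 below, and most of these 17 at low signal apart from Cx3cr1 and Dnttip2.

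Other sites named for a higher value at good signal stayed under 1. They were near Atp6v1b2 (-80575 bp, 4.31 and 5.095, 0.785), Scel (0.78, a protein of the epithelial envelope), Gm3230 (0.76) and Tgfbr2 (4.035 and 4.775, 0.74). Lower at good signal were sites near Metrnl, a secreted factor (3.54 and 2.53, -1.01), Ptafr, the receptor of platelet-activating factor (-0.995), Hmga2, a chromatin protein (-0.985), Ankrd33b (-0.835), Zeb2 (-0.80) and Socs1, an inhibitor of cytokine signalling (-0.79). The Hif1a site, lower in tagged cells, was lower here as well, at 5.74 in WT and 4.97 in DKO (-0.77).

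Of the 14 sites of listed macrophage transcription factors 1 was past the size limit, near Klf4, a factor of monocyte differentiation (2.855 and 1.59, -1.265). Over all common sites 3.37% were higher and 2.20% lower by that size. The site most distant from Cited2 read 2.605 and 1.465 (-1.14). All 5 sites of listed cytokine and chemokine receptors were above 0, from 0.115 near Cxcr4 to 1.385 near Cx3cr1. Of all common sites, 52.5% were above 0, and of the 5 only the Cx3cr1 site was past the size limit. Most other differences past 1 were at low signal, as near Ptpn1, a tyrosine phosphatase (0.575 and 1.96, 1.385). Another was near Tcf7l2, a Wnt pathway transcription factor outside the list (1.92 and 3.625, 1.705). Across the 292 sites the GRO-seq difference correlated at 0.09 with binding and at -0.07 with the 5'GRO-seq difference (Spearman, as descriptions over sites). The 98 most strongly bound sites had a median of 0.04, and the 97 most weakly bound -0.01.

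The assays gain and lose the receptors in different macrophages, so a site can be read in both. Of the 42 sites lower in tagged cells, 10 were higher by at least 0.5 in DKO (23.8%), and 5 were lower by as much (11.9%). Over all common sites the shares were 17.8% of 309 and 12.9%. Among the 250 other distal sites 31 were higher and 35 lower. Sites of that double pattern made up 3.42% of the distal sites, against 3.56% of all common sites, and the limit of 0.5 was chosen after the values were seen.

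The 10 sites were near Dnttip2, Cx3cr1, Edn1, Atp6v1b2, Lpin1, Scel, Gpbp1, Atl2, Npnt and Pvt1. The Edn1 site read 2.085 in WT and 2.685 in DKO (0.60). The first 4 named are among the 10 most strongly bound sites. At 4 of the 10 (Atp6v1b2, Lpin1, Scel and Atl2) the tagged 5'GRO-seq library held no tag, on about 14, 21, 11 and 5 tags in control. With 10 added, only Dnttip2 and Cx3cr1 of the 10 met both limits, though that setting leaves little room at low GRO-seq signal.

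The genes assigned to the distal sites were transcribed at nearly the same level in both genotypes, with Cx3cr1 as the exception. Gene values are log2 GRO-seq levels in 2 runs per genotype. A gene is counted as higher or lower when the means differ by at least 0.5 and the runs do not overlap. Of 238 genes 4 were higher (1.68%, against 1.97% of the 1220 assigned genes) and none lower (against 0.738%). The median difference was 0.015, against 0.035 over all. With 1 run left out, the genes counted as higher ranged from 3 (without the second DKO run) to 15 (without the first WT run), and those counted as lower from 1 to 4. Without a size limit, the runs were apart at 43 genes toward DKO (18.1%, against 18.4%) and at 28 toward WT (11.8%, against 10.0%). The difference was within 0.2 at 186 genes (78.2%), and its median size was 0.095. The median gap between the runs of 1 genotype was 0.155 in WT and 0.14 in DKO. A difference of means of 2 runs spreads less than a gap between single runs, so these sizes are not directly comparable.

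The WT runs of Cx3cr1 were 8.19 and 9.16 and its DKO runs 10.24 and 10.40, a difference of 1.645. The runs did not overlap, and with any single run left out the difference lay between 1.16 and 2.13. Besides its distal site, Cx3cr1 had 2 other common sites, and which of them acts on the gene was not tested. Sh3tc2, an endosomal protein of Schwann cells, read 5.81 and 5.82 in WT and 6.42 and 6.41 in DKO (0.60). Plb1, a phospholipase, read 3.80 and 4.33 against 4.44 and 5.34 (0.825), a difference of 0.375 without the second DKO run. Phlda1 read 6.90 and 7.30 against 7.55 and 7.66 (0.505), and 0.305 without the first WT run. Of these 4 genes, only Cx3cr1 had a level above the lower quartile of all assigned genes (8.43), and the other 3 fall outside the rule for named genes and are given because they complete the count.

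At their own distal sites the other 3 did not share the pattern of Cx3cr1. The site of Phlda1 read -0.54 in DKO minus WT and that of Sh3tc2 0.02, while the Plb1 sites read 0.515 and 1.185. None of these 4 sites was lower by 1 in tagged cells (from -0.45 to -0.08).

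**Figure D5:**
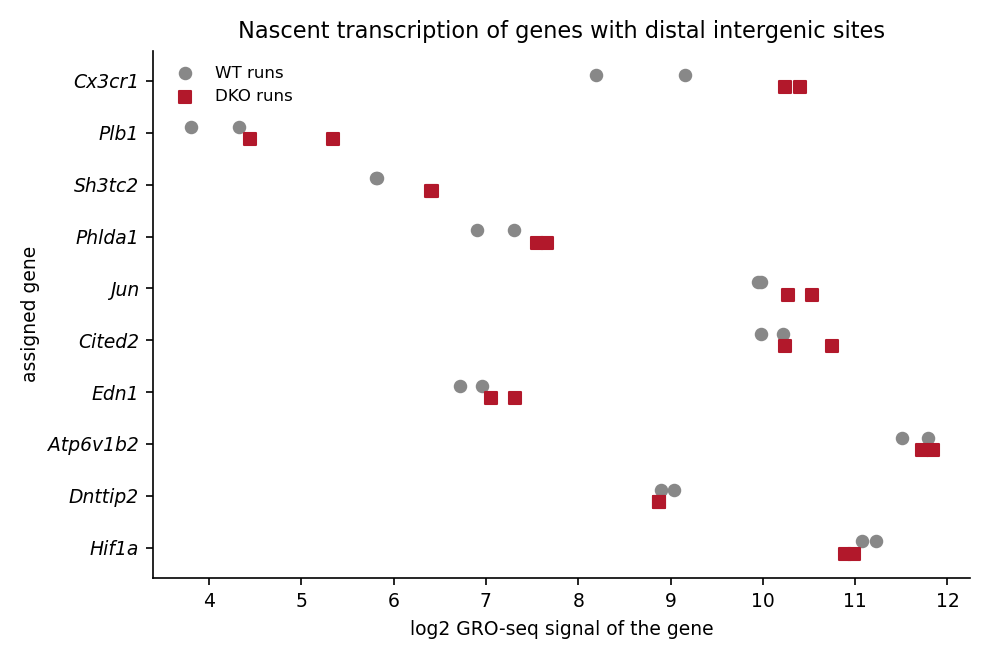
Log2 GRO-seq level of 10 genes assigned to distal intergenic sites (vertical axis), with 2 WT runs (circles) and 2 DKO runs (squares) of 1 sample each on the horizontal axis. The Cx3cr1 runs stand apart by more than those of the other genes, from 8.19 and 9.16 in WT to 10.24 and 10.40 in DKO.

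No listed macrophage transcription factor with a distal site reached the size limit at gene level. The median was 0.28 over the 9 genes, against 0.035 over all, and the runs were apart toward DKO at 2 and toward WT at 1, against 18.4% and 10.0% of all assigned genes. Jun, an AP-1 subunit, read 9.95 and 9.98 in WT and 10.27 and 10.53 in DKO (0.435). Hif1a was on the other side, with 11.07 and 11.23 against 10.99 and 10.89 (-0.21). The runs of Cebpa, Fos and Klf4 overlapped.

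Apart from Cx3cr1, the genes of strongly bound sites differed little between the genotypes. Dnttip2, whose site had the largest difference in DKO, read 8.90 and 9.04 in WT and 8.87 and 8.87 in DKO (-0.10). Its runs were apart toward WT, the other way from its site. Edn1 read 6.72 and 6.96 against 7.05 and 7.31 (0.34), with the runs apart toward DKO. Its level, 7.01, was under the lower quartile of all assigned genes (8.43), and it had 1 other common site. Atp6v1b2 read 11.79 and 11.51 against 11.72 and 11.84 (0.13), with overlapping runs. In the gene order of the GRCm38 assembly, Dnttip2 lies between Gclm and Bcar3, and Edn1 between Hivep1 and Phactr1, and which of these genes a site acts on was not tested. Spred1, with 8 sites, had a mean of 12.875 in WT and 12.76 in DKO, and Reep3, with 5, had 10.995 in both, with overlapping runs at either gene.

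The 37 genes whose distal site was lower in tagged cells had a median difference of 0.035 in DKO, with 1 counted as higher (Cx3cr1) and none as lower. The 173 genes with distal intergenic sites only had 2 higher and the 65 that also had other common sites had 2. For comparison, 4 genes were higher and 2 lower of the 267 with genic enhancer sites beyond 30 kb, and 11 were higher and 2 lower of the 234 with intergenic enhancer sites within 30 kb. Genes can belong to more than 1 of these groups.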

How the data were processed

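The submitters' processing notes name mm9, Bowtie 0.12.7 and HOMER. How peaks were called is not given in the sources used here. All values are the authors' deposited log2 values, with 1 added before the logarithm. ChIP-seq is scaled to 10000000 tags in 157 bp and 5'GRO-seq to 10000000 tags in 500 bp, per the file headers. GRO-seq at sites has 1 column per genotype with no stated scaling. Position, distance, class and assigned gene are as deposited. Of 15 samples in the labels, 7 have values in the tables.

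Runs were averaged on the log2 scale and differences taken with Python 3.11.15, numpy 2.4.6 and pandas 2.3.3. With 1 sample per group no test across samples was run. Approximate tags were worked back from the log2 values and library totals; the floor is 3 tags, and intervals are exact (Clopper-Pearson, 95%, scipy 1.17.1). Symbols came from RefSeq for 234 of 238 gene IDs (assembly GRCm38.p6, names and gene order only). The call rules were run on simulated data without low tag numbers or unequal depth, which checks that they work as written and not how reliable the calls are. The sequences under the sites were not analysed here.

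Sites were named by rule: the 10 most strongly bound; the 10 lowest and 5 highest in 5'GRO-seq and 6 highest and 6 lowest in GRO-seq at or above the members' median signal; the 5 farthest; all sites of genes with 3 or more, or on a gene list. Further sites are said to be picked after their values were seen, or belong to clusters. Members, lists and size limits were chosen with earlier results of these data known. Alternatives were another amount added, a filter on low signal, other size and distance limits, 1 site per gene, and each run left out. Some named sites and genes are not reported here.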

Additional observations from a re-analysis of the deposited data

How the results depend on the processing

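No paired analysis was possible because each group has 1 sample. The median 5'GRO-seq difference stayed below 0 in every alternative run. The median GRO-seq difference, -0.005, lay between -0.045 and 0.007. The order of the median binding of the proteins turned without RevErbalpha run 1 and without RevErbbeta run 2. In 5'GRO-seq the share of lower sites was 14.4%, and it was 7.88% with 10 added, 9.21% above the lower quartile of signal and 32.9% at a size of 0.5. The share of higher sites was 6.16%, and it was 2.74% with 10 added, 17.8% at 0.5 and 2.86% beyond 100 kb. In GRO-seq the share of lower sites was 1.71% and became 0%, 1.09% and 13.7% with 10 added, above the lower quartile and at 0.5, and that of higher sites was 4.11% and became 0.685%, 2.19% and 14%. Of 78 named sites 24 were past 1 in 5'GRO-seq, 12 of them also with 10 added, and none turned. A count kept to sites with more than 3 tags in 1 or both libraries, added after the data were seen, stayed within 1.5 times. Median binding was 5.08 (RevErbalpha), 6.015 (RevErbbeta) and 5.464 (mean) in the deeper runs only. With single runs left out it ranged from 5.325 to 5.797, 5.447 to 6.015 and 5.434 to 5.759. The share of higher genes, 1.68%, was 0.42% at a size of 1, 18.1% with no size limit, 0.541% above the lower quartile of level, 0.654% beyond 50 kb and 0% beyond 100 kb. With single GRO-seq runs left out it ranged from 1.26% to 6.3%, and the share of lower genes, 0%, from 0.42% to 1.68%. The latter was 11.8% with no size limit. Shallow ChIP-seq runs and sites with few 5'GRO-seq tags limit what a single site can show.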

Other observations

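Distal sites near Bcl2l11 and its neighbour Morrbid, a long non-coding RNA gene, differed from each other, and they were picked after their values were seen. The site assigned to Bcl2l11 (chromosome 2, 128066409 to 128066565) read 6.16 in control and 7.13 in tagged cells, and 0.425 in WT and 1.58 in DKO. The GRO-seq difference, 1.155, lies at low signal and was 0.213 with 10 added. The nearer Morrbid site (128293295 to 128293451), among the more strongly bound with a mean of 7.25, read 4.85 and 4.65 in 5'GRO-seq. The farther one (128378687 to 128378843) read 4.73 and 1.91, about 47 tags and 1 tag, a ratio of 18.2 with an exact 95% interval from 3.11 to 733. At gene level Bcl2l11 read 11.58 and 11.31 in WT and 11.22 and 11.50 in DKO, and Morrbid 10.54 and 11.04 against 10.88 and 10.66, both with overlapping runs.

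Other large negative 5'GRO-seq differences at low tag numbers were seen near Auh, an RNA-binding mitochondrial hydratase, Ier3, an early response gene, and Cryz, a quinone reductase. With no tag in tagged cells, control was at least 5.16-fold higher near Auh, 5.29-fold near Ier3 and 4.9-fold near Cryz. Near Sulf2, an extracellular sulfatase, about 64 tags and 1 tag gave a ratio of 24.8 with an interval from 4.29 to 993. None of these 4 sites differed by 0.5 in GRO-seq.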
